A study of Mus musculus with 6 samples.

Results

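The genes described here make up the mitochondrial respiratory chain and the ATP synthase, in germinal centre (GC) B cells of mouse spleen. Members were taken by symbol: those starting with Nduf, Uqcr, Atp5, Cox4 to Cox8 or mt-, and Sdha to Sdhd. The rule found 106 of the 32451 gene symbols listed over the 3 deposited tables. Of these, 93 are encoded in the nucleus and 13 in the mitochondrial genome. The nuclear members are 36 subunits and 8 assembly factors of complex I, 4 subunits of complex II, 8 of complex III, 19 of complex IV, 15 of the ATP synthase (complex V), and 3 genes counted apart (Cox7a2l, Atp5s and Atp5sl). The tables list 105 members at day 7, 105 at day 14 and 102 in the chimaeras.

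The study sequenced single sorted B cells from the spleen with 5' droplet chemistry, in which unique molecular identifiers (UMIs) count captured RNA molecules. All mice were immunised with an NP-haptenated antigen in alum. The day 7 group holds 2 libraries of B220+ CD38- GL7hi cells from wild type mice, and the day 14 group 2 libraries of B220+ CD95hi GL7hi IgD- cells from wild type mice. The chimaeras were irradiated hosts reconstituted with wild type bone marrow and taken at day 14 with the same gate as the day 14 group. The control host was Il4ra+/+ (1 library), and the KO host carried Ccl19Cre/+ with Il4raf/f (1 library). Ccl19-Cre acts in stromal cells of lymphoid organs, so the deletion lies in the host and the sequenced B cells derive from wild type marrow: their own Il4ra counts do not check the KO label. Whether the replicate libraries are separate mice is not stated, so p-values measure only the spread between these libraries. The deposited tables assign each cell a cell cycle phase (G1, S or G2M), a Position (LZ for light zone, DZ for dark zone, or unknown) and a cluster number.

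The respiratory chain passes electrons from NADH and succinate through complexes I and II to complex III, cytochrome c and complex IV, and the proton gradient that complexes I, III and IV build drives complex V. Complexes I, III, IV and V combine nuclear subunits with subunits translated inside the mitochondrion from polycistronic transcripts of the mitochondrial genome, while complex II is wholly nuclear. In the GC, B cells divide and mutate their antibody genes in the dark zone, and compete for antigen and T cell help in the light zone.

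In the mitochondrial genome, 2 pairs of reading frames overlap on the same RNA, and they are shown because the UMIs of both pairs changed unequally between libraries. Sequences are GENCODE transcripts on GRCm38, 5' to 3', with the bases shared with the next frame in capitals. The mt-Atp8 frame lies at chrM:7766-7969 on the plus strand and shares its last 43 bases with mt-Atp6 (chrM:7927-8607). The mt-Nd4l frame lies at chrM:9877-10173 and shares 7 bases with mt-Nd4 (chrM:10167-11544). All 4 encode protein. A UMI in the shared bases cannot be told apart between the partners, and how the authors counted such reads is not given in the sources used here.
mt-Atp8: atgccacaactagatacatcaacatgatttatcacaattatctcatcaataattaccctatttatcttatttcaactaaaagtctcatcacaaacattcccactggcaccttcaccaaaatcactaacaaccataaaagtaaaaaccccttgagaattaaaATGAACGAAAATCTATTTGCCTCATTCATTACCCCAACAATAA
mt-Nd4l: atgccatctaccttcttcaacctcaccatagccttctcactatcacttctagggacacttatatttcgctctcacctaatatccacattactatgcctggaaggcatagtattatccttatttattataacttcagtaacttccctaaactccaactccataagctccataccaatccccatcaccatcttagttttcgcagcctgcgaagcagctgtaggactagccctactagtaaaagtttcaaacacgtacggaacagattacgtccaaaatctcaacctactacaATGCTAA

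For the nuclear members, 77 genes matched the RefSeq promoter table (GRCm38.p6), with 83 windows of 250 bases before to 50 after a start. Short sequence motifs were counted on both strands. The nuclear respiratory factor 1 palindrome, GC followed by GCATGCGC, was in 8.43% of member windows and 0.971% of all 32851 windows in the table, and GCATGCGC alone, which lies inside it, in 14.5% against 2.71%. The ETS family motif CCGGAAG was in 21.7% against 8.86%, and the YY1 motif AAGATGGC in 15.7% against 2.75%. The E-box CACGTG was in 10.8% against 7.15%, and the GC box GGGCGG in 43.4% against 35.7%. These are letter matches, not measured binding. The following 5 windows belong to members followed below: 4 that were lower in light zone cells and Atp5g1, which was higher. Capitals mark the NRF1, ETS and YY1 motifs. The window of Sdhb (iron-sulphur subunit of complex II) is chr4:140961021-140961320, plus strand. That of Atp5j (peripheral stalk subunit of complex V) is chr16:84834927-84835226, minus strand. That of Ndufb8 (accessory subunit of complex I) is chr19:44555393-44555692, minus strand. That of Uqcrc1 (core subunit of complex III) is chr9:108936398-108936697, plus strand. That of Atp5g1 (1 of 3 genes for the c-ring subunit of complex V) is chr11:96075582-96075881, minus strand.
Sdhb: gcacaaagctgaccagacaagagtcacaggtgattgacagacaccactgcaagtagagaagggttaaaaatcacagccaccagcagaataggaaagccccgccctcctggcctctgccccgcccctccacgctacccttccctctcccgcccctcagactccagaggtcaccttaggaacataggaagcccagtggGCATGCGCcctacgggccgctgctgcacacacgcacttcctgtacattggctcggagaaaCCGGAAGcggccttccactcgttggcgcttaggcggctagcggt
Atp5j: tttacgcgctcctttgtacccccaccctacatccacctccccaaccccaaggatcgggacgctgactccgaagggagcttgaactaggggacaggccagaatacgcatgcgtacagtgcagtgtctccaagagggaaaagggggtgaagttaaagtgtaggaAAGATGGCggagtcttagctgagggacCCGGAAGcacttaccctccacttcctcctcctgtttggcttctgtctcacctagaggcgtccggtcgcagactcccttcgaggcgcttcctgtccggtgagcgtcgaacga
Ndufb8: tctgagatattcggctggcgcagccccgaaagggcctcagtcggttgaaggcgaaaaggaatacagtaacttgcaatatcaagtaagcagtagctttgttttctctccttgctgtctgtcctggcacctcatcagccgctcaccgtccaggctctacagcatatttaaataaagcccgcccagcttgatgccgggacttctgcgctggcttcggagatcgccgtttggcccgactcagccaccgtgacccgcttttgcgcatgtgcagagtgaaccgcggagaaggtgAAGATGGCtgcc
Uqcrc1: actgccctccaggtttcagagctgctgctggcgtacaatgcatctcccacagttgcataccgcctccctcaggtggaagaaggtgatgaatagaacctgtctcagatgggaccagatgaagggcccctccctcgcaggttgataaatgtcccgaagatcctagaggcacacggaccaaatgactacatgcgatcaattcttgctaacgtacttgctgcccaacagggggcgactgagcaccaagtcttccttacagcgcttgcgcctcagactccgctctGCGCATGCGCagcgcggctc
Atp5g1: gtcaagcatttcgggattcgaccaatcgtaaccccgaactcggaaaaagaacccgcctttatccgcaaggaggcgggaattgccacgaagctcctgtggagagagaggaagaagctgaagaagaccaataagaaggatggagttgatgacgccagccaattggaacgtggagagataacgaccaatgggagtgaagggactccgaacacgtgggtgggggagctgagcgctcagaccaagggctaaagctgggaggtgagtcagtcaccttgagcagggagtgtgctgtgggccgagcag
The Atp5g1 window holds none of the 3 motifs in capitals, but it holds the E-box, which is not marked. Sdhb and Atp5j each hold an ETS motif, Sdhb the short NRF1 form, Atp5j and Ndufb8 the YY1 motif, and Uqcrc1 the full NRF1 palindrome. Among the 53 windows of members lower in light zone cells, 26.4% held the ETS and 17.0% the YY1 motif, 7.55% the NRF1 palindrome, 13.2% its short form and 7.55% the E-box. The GC box was in 43.4% of them.

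The tables differ in depth and in the mitochondrial share they hold, and this touches most results below. Day 7 cells hold 7290 to 49966 UMIs with at most 4.99% of them mitochondrial, day 14 cells 500 to 9998 UMIs with at most 19.99%, and chimaera cells 554 to 19996 UMIs with at most 9.97%. The libraries hold 1012 and 2530 cells at day 7, 9109 and 10648 at day 14, and 8038 (control) and 7314 (KO) in the chimaeras. Between 1 and 135 cell barcodes were shared by any pair of libraries. Of the markers of other cells, the T cell list summed to 0.301 to 1.47 UMIs per 1000000 UMIs of the library (CPM), the myeloid list to 14.8 to 33.1, and the erythroid list to 59.5 to 639, highest in day 7 replicate 1. The plasma cell list of 7 genes, none at 0, summed to 3243 and 3115 CPM at day 7, 796 and 769 at day 14, and 2975 and 2150.3 in the control and KO chimaera. The follicular dendritic or stromal list summed to 35.99 and 26.6 at day 7, 110.2 and 93.95 at day 14, and 59.9 and 44.2 in the chimaeras. Nearly all of this was Cr2, which B cells also express, at 35.8 and 26.4 CPM at day 7 and 109.9 and 93.6 at day 14, with Pdpn at 0 in these 4 libraries. All 6 B cell markers were detected in every library.

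Most of the chain was expressed in every library. Of the 93 nuclear members, 80 reached 20 CPM in every library that lists them. The 8 members under 5 CPM throughout were Cox4i2, Cox6a2, Cox6b2, Cox7a1, Cox8b, Cox8c, Ndufa4l2 and Cox7b2, which are isoforms known from lung, muscle, testis or hypoxic cells. Cox8c and Cox7b2 had 0 UMIs in the 4 libraries that list them. Cox6b2, a testis isoform of complex IV, stood at 4.03 and 3.76 CPM at day 7, 3.56 and 3.64 at day 14, and 3.42 and 2.66 in the control and KO chimaera. Its somatic counterpart Cox6b1 stood at 650.1 and 672 CPM at day 7, 453 and 446 at day 14, and 659.7 and 722 in the control and KO chimaera. Both isoforms were thus counted in every library. All 3 genes for the c-ring of complex V were expressed. Atp5g1 stood at 269 and 278 CPM at day 7, 152 and 165 at day 14, and 238 and 242 in the control and KO chimaera. Atp5g2 stood at 845 and 890.1 CPM at day 7, 337 and 328 at day 14, and 915 and 999.9 in the control and KO chimaera, and Atp5g3 at 1008 and 1092 CPM at day 7, 352 and 344 at day 14, and 959.6 and 1026 in the control and KO chimaera. For each c-ring gene both day 14 libraries lay below the other 4 in these levels over all cells. Many of these genes have processed pseudogenes, and reads could be split between copies in a way the counts do not show.

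The share of all UMIs taken by the 13 mitochondrial genes was 2.68% and 2.63% at day 7, 7.41% and 7.68% at day 14, and 3.05% and 3.005% in the control and KO chimaera. That of the 93 nuclear genes was 2.71% and 2.85% at day 7, 1.86% and 1.86% at day 14, and 2.82% and 2.99% in the control and KO chimaera. Mitochondrial UMIs per nuclear UMI were 0.987 and 0.925 at day 7, 3.99 and 4.13 at day 14, and 1.08 and 1.005 in the control and KO chimaera. The day 14 libraries stood apart on both sides of the ratio. Sums over cells such as these do not by themselves tell fewer cells with an RNA from less of it per cell. The counts of single cells were not used here to separate the 2.

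Within every library the shares moved with the number of UMIs per cell, in opposite directions for the 2 genomes. In day 14 replicate 1, cells under 2000 UMIs gave 12.3% to mitochondrial and 1.03% to nuclear members, and cells of 7290 to 9998 UMIs gave 5.35% and 2.31%. Replicate 2 went from 12.4% and 1.07% to 5.62% and 2.30%. The control chimaera went from 5.63% and 2.26% under 2000 UMIs to 2.76% and 2.97% above 9998, and the KO chimaera from 4.99% and 2.36% to 2.84% and 3.13%. At day 7 the lower bin gave 3.06% and 2.42% in replicate 1 and 3.06% and 2.56% in replicate 2, against 2.65% and 2.73%, and 2.62% and 2.86%, above it.

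**Figure D1:**
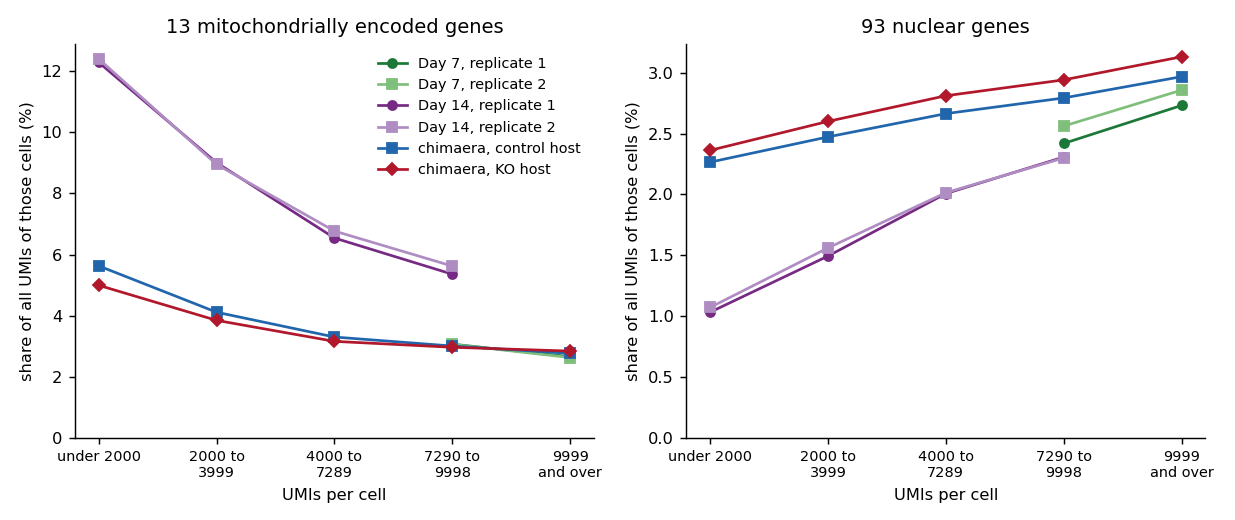
Share of all UMIs (%, vertical axes from 0) taken by the 13 mitochondrially encoded genes (left) and the 93 nuclear genes (right), for cells grouped by UMIs per cell (horizontal axes), 1 line per library. Mitochondrial shares fall and nuclear shares rise to the right in all 6 libraries, and the day 14 libraries start at 12.3% and 12.4% on the left.

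Day 14 was compared with day 7, 2 libraries against 2, with edgeR's quasi-likelihood test (p-values adjusted over all genes by Benjamini-Hochberg, called under 0.05). Of the 13 mitochondrial members 9 rose and 0 fell (median log2 difference 1.05). Of the 86 nuclear members that passed the count filter 4 rose and 70 fell (median -0.74). Over all 11995 genes tested, 34.9% were called higher and 33% lower, with a median of 0.04. With library totals in place of trimmed-mean (TMM) scaling the median of all genes was 0.23, and 10 nuclear and all 13 mitochondrial members rose (background 42.6% higher and 25.7% lower). At an unadjusted p under 0.05, and with DESeq2, 0 mitochondrial members fell as well. The 3 RNA quality transcripts tested, nuclear noncoding RNAs such as Malat1, all rose too (median 1.86), and the plasma cell list summed to less at day 14, as given above. Their part in the result was not tested. Day, gate, table and depth per cell changed together here and cannot be told apart.

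The mitochondrial members differed from each other in this comparison. The complex V gene mt-Atp8 stood at 3635 and 3662 CPM at day 7, 16100.2 and 17899 at day 14, and 4416 and 4425 in the control and KO chimaera (day 14 over day 7, log2 difference 2.04 ± 0.08 SE, edgeR adjusted p = 2.5e-05). The complex I gene mt-Nd4l stood at 2165 and 2181 CPM at day 7, 9469 and 10183 at day 14, and 3567 and 3618 in the control and KO chimaera (log2 difference 2.001 ± 0.08 SE, edgeR adjusted p = 2.3e-05). The complex IV gene mt-Co2 stood at 3644 and 3683 CPM at day 7, 12541 and 13288 at day 14, and 4439 and 4334 in the control and KO chimaera (log2 difference 1.64 ± 0.07 SE, edgeR adjusted p = 2.5e-05). For all 3 genes the day 14 libraries lay above the other 4. In dark zone cells and in light zone cells, each taken apart, this held for all 13 mitochondrial genes. The share of all genes with such a separation was not counted. The other genes that rose were mt-Nd5 (1.64), mt-Co1 (1.46), mt-Nd4 (1.33), mt-Cytb of complex III (1.05), mt-Nd2 (0.996) and mt-Nd6 (0.58), the last being the single member encoded on the other strand. The 4 that did not pass the test were mt-Atp6 at 0.38, mt-Co3 at 0.19, mt-Nd3 at 0.07 and mt-Nd1 at 0.03. The complex I gene mt-Nd1 stood at 2013 and 2158 CPM at day 7, 2481 and 2334 at day 14, and 1939 and 1849 in the control and KO chimaera, so its day 14 libraries lay just above the other 4 in CPM while those of mt-Atp8 lay several fold above.

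Ratios between pairs of mitochondrial genes show the same unevenness in each library. UMIs of mt-Atp8 per UMI of mt-Atp6, the pair with the longer overlap printed above, were 2.05 and 2.87 at day 7, 7.11 and 8.11 at day 14, and 5.59 and 6.60 in the control and KO chimaera. UMIs of mt-Nd4l per UMI of mt-Nd4 were 3.32 and 3.64 at day 7, 5.21 and 5.86 at day 14, and 6.26 and 7.05 in the control and KO chimaera. In both overlapping pairs the day 7 libraries had the lowest ratios. UMIs of mt-Co3 per UMI of mt-Co2 were 1.04 and 1.04 at day 7, 0.410 and 0.350 at day 14, and 0.989 and 1.01 in the control and KO chimaera. UMIs of mt-Co1 per UMI of mt-Nd1 were 2.12 and 1.93 at day 7, 5.32 and 5.58 at day 14, and 2.39 and 2.36 in the control and KO chimaera. For these last pairs the day 14 libraries stood apart and the chimaeras, although taken at day 14 with the same gate, lay near day 7.

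**Figure D2:**
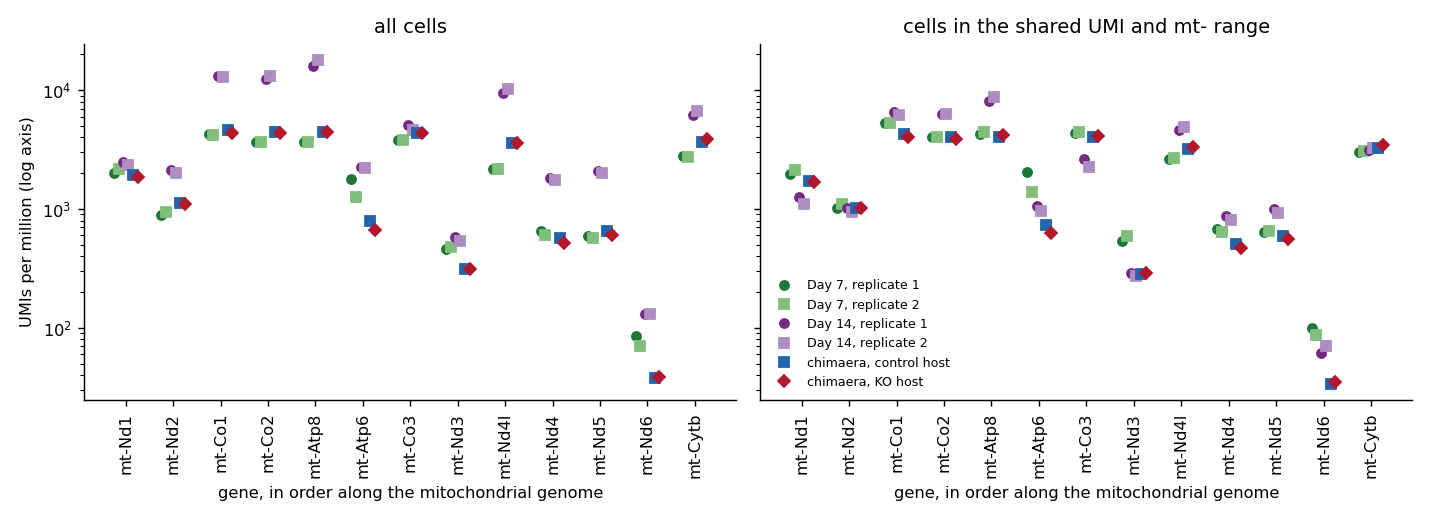
Level (CPM, log axis) of the 13 mitochondrially encoded genes in genome order, for all cells and for cells in the range of UMIs and mitochondrial share that the tables have in common (points, 1 colour per library). In all cells the day 14 libraries lie well above the others for mt-Atp8, mt-Nd4l and mt-Co2, among other genes, while the libraries lie close together for mt-Nd1.

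Among the nuclear members, all complexes took part in the decrease. Complex I had 30 of 36 subunits lower and 2 higher, complex II 4 of 4 lower, complex III 6 of 8 lower, complex IV 11 of 14 lower and 1 higher, and complex V 13 of 15 lower. Sdhd, a membrane anchor of complex II, stood at 99.6 and 106 CPM at day 7, 24.6 and 24.2 at day 14, and 72.95 and 73.8 in the control and KO chimaera (log2 difference -2.26 ± 0.08 SE, edgeR adjusted p = 2.3e-05). Ndufc2, an accessory subunit of complex I, stood at 225 and 248 CPM at day 7, 67.3 and 66.8 at day 14, and 198 and 215 in the control and KO chimaera (log2 difference -1.996 ± 0.08 SE, edgeR adjusted p = 2.4e-05). Ndufa4, now counted with complex IV, fell by 1.94 on the log2 scale and Uqcrb of complex III by 1.82. In Sdhd and Ndufc2 both day 14 libraries lay below the other 4. The accessory complex I subunits Ndufb7 (0.33) and Ndufs6 (0.21) rose. Cox4i2, the isoform of lung and hypoxic cells, is counted as higher too (2.22), but on 9 and 12 UMIs at day 7 and 52 and 68 at day 14. In the cells of the range shared by both tables, described next, it had too few counts for the test and stood at 1.62 and 2.07 CPM at day 7 and 2.90 and 0.723 at day 14. The fourth was Atp5s, a factor related to the synthase (1.73).

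The comparison was repeated in the range that the tables share, 7290 to 9998 UMIs and at most 4.99% mitochondrial UMIs per cell. This range takes the shallow end of day 7 (143 and 151 cells) and the deep end of day 14 (482 and 484 cells). There the nuclear members took 2.42% and 2.56% of UMIs at day 7 and 2.55% and 2.58% at day 14, and the mitochondrial members 3.06% and 3.06% against 3.69% and 3.69%. Now 23 nuclear members were higher and 11 lower, with 18.5% of all 9137 genes tested higher and 18.2% lower. Of the 70 nuclear members lower in all cells, 11 (15.7%) were lower and 11 (15.7%) higher in the shared range. The mitochondrial members split into 6 higher and 5 lower. Since the range limits the mitochondrial share itself, it also bounds how far the mitochondrial sum can differ.

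The mitochondrial genes kept nearly the same order with lower values. In the shared range mt-Atp8 was still higher (0.98), as were mt-Nd4l (0.88), mt-Co2 (0.69), mt-Nd5 (0.61), mt-Nd4 (0.38) and mt-Co1 (0.32). Those lower were mt-Nd3 (-0.97), mt-Co3 (-0.80), mt-Nd1 (-0.75), mt-Atp6 (-0.72) and mt-Nd6 (-0.44). Ndufb8 went from -0.62 in all cells to 0.49 in the shared range, and Uqcrq, a small subunit of complex III, from -0.22 to 0.53. Of the c-ring genes, Atp5g1 was lower in all cells but higher in the shared range (0.41). Atp5g2 (-0.085) and Atp5g3 (-0.17), also lower in all cells, did not pass the test there. The direction of the nuclear decrease thus rested on the cells included, whereas Sdhd stayed negative at -0.95 and Ndufc2 at -0.52.

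**Figure D3:**
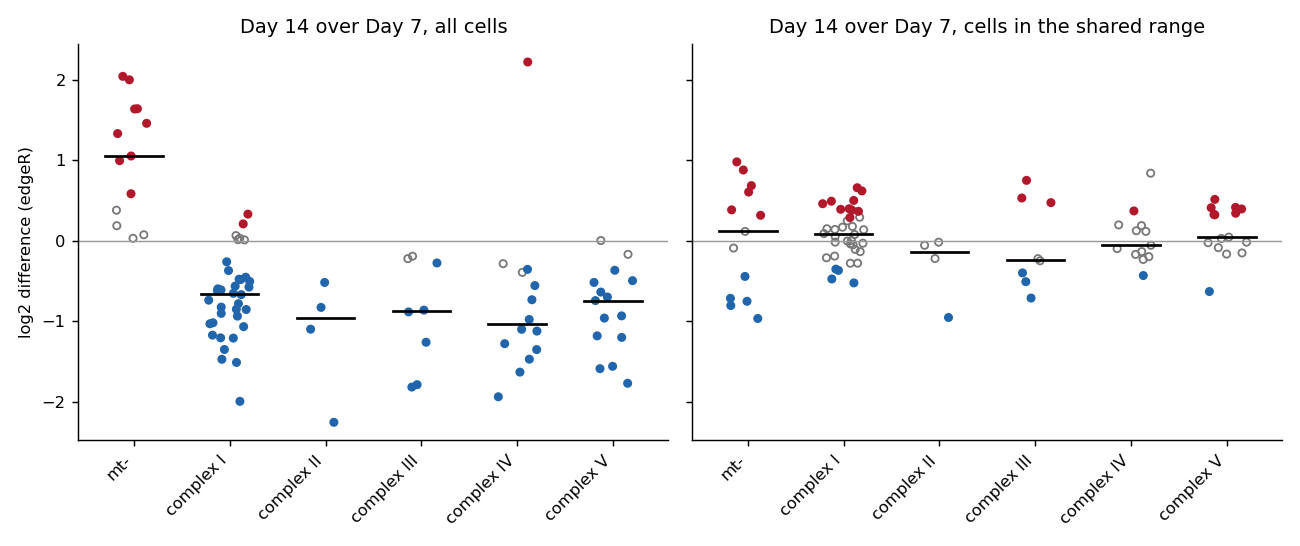
Log2 difference of day 14 over day 7 for each member, grouped by complex, in all cells and in the cells of the shared range (points, filled where edgeR's adjusted p is under 0.05, bars at the median of each group). The medians of the nuclear subunits of each complex lie below 0 in all cells, and lie nearer 0 or above it in the shared range.

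Light zone and dark zone cells were compared within the 6 libraries, with library as a block. Most of the nuclear chain was lower in light zone cells: 57 of 86 nuclear members were lower and 4 higher (median -0.14), where 27.5% of all 11819 genes tested were lower and 30.1% higher. Few mitochondrial genes did the same: 2 of 13 were lower and 0 higher (median -0.04), and 0 were higher at an unadjusted p under 0.05 or with DESeq2. DESeq2 called 5 of the 13 lower. The 2 lower genes were mt-Nd1 (-0.16) and mt-Co2 (-0.12). Light zone cells held fewer UMIs, with medians of 13519 and 15336 at day 7, 2769 and 2547 at day 14, and 6112 and 6209 in the control and KO chimaera, against 20954 and 20943 at day 7, 3883 and 3733 at day 14, and 7847 and 8321 in the control and KO chimaera in dark zone cells. With every cell thinned to 500 UMIs, 39 of 83 nuclear members were lower and 1 higher, and 1 mitochondrial gene was lower (background 16.2% lower and 16% higher of 9197 genes). Thinning draws UMIs at random and keeps each cell's expected shares. Here and below it therefore cannot remove a link between shares and UMIs per cell, and it leaves fewer counts to test. Library totals gave 45 nuclear members lower and 7 higher (21.8% and 34.3%).

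By complex, the decrease took in 24 of 36 complex I subunits, 4 of 4 of complex II, 4 of 8 of complex III, 10 of 14 of complex IV and 11 of 15 of complex V. Sdhb, which carries electrons from succinate through iron-sulphur clusters, stood at 358 and 355 CPM at day 7, 286 and 289.8 at day 14, and 383 and 384 in the control and KO chimaera in dark zone cells, against 289.8 and 310.5 at day 7, 209 and 227 at day 14, and 277 and 282 in the control and KO chimaera in light zone cells (log2 difference -0.41 ± 0.04 SE, edgeR adjusted p = 1.4e-06). Atp5j stood at 678 and 685 CPM at day 7, 347 and 334 at day 14, and 622 and 645 in the control and KO chimaera in dark zone cells, against 554 and 614 at day 7, 274 and 269 at day 14, and 481 and 512 in the control and KO chimaera in light zone cells (log2 difference -0.34 ± 0.03 SE, edgeR adjusted p = 3.8e-06). Ndufa5, an accessory subunit in the arm of complex I that takes up NADH electrons, stood at 165 and 174 CPM at day 7, 116 and 117 at day 14, and 170.4 and 183 in the control and KO chimaera in dark zone cells, against 129 and 165 at day 7, 97.03 and 93.2 at day 14, and 134 and 144 in the control and KO chimaera in light zone cells (log2 difference -0.33 ± 0.04 SE, edgeR adjusted p = 2.6e-05). Each of the 3 genes was lower in light zone cells in 6 of 6 libraries. Cox6b2 had the lowest difference of all subunits (-1.08), at a few CPM. Among the subunits only Atp5g1 was higher, at 248 and 253 CPM at day 7, 143 and 158 at day 14, and 224 and 234 in the control and KO chimaera in dark zone cells, against 307 and 324 at day 7, 171 and 182 at day 14, and 268 and 261 in the control and KO chimaera in light zone cells (log2 difference 0.22 ± 0.03 SE, edgeR adjusted p = 0.00017). The other higher genes were the complex I assembly factors Ndufaf4 (0.75), Ndufaf1 (0.24) and Ndufaf6 (0.17), while Ndufaf2 was lower (-0.36).

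Summed over all nuclear members, the light zone level was lower in every library, with log2 differences of -0.11 and -0.04 at day 7, -0.13 and -0.11 at day 14, and -0.18 and -0.16 in the control and KO chimaera (mean log2 difference -0.12 ± 0.05 SD, n = 6 libraries, higher in 0 of 6). The mitochondrial sum differed by 0.07 and 0.01 at day 7, -0.05 and -0.02 at day 14, and -0.11 and -0.03 in the control and KO chimaera (mean log2 difference -0.02 ± 0.06 SD, n = 6 libraries, higher in 2 of 6). The sums of the nuclear members therefore moved one way in all libraries and those of the mitochondrial members in both. Mitochondrial UMIs per nuclear UMI were higher in light zone cells in 6 of 6 libraries (0.10 ± 0.05 SD). Of the 3 RNA quality transcripts tested, 2 were higher in light zone cells, and their part in the result was not tested.

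To hold the phase of the cycle fixed, the zones were also compared in G1 cells alone. There 46 nuclear members were lower and 2 higher (background 19.4% lower and 20.5% higher of 10352 genes). Of the 57 lower in all cells 42 (73.7%) were also lower in G1 cells, which is 91.3% of the 46. The nuclear sum was lower in every library (mean log2 difference -0.20 ± 0.04 SD, n = 6 libraries, higher in 0 of 6). Sdhb was at -0.46 and Atp5g1 at 0.26 in G1 cells. Among the mitochondrial genes mt-Nd6 was the single one called, and it was higher.

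**Figure D4:**
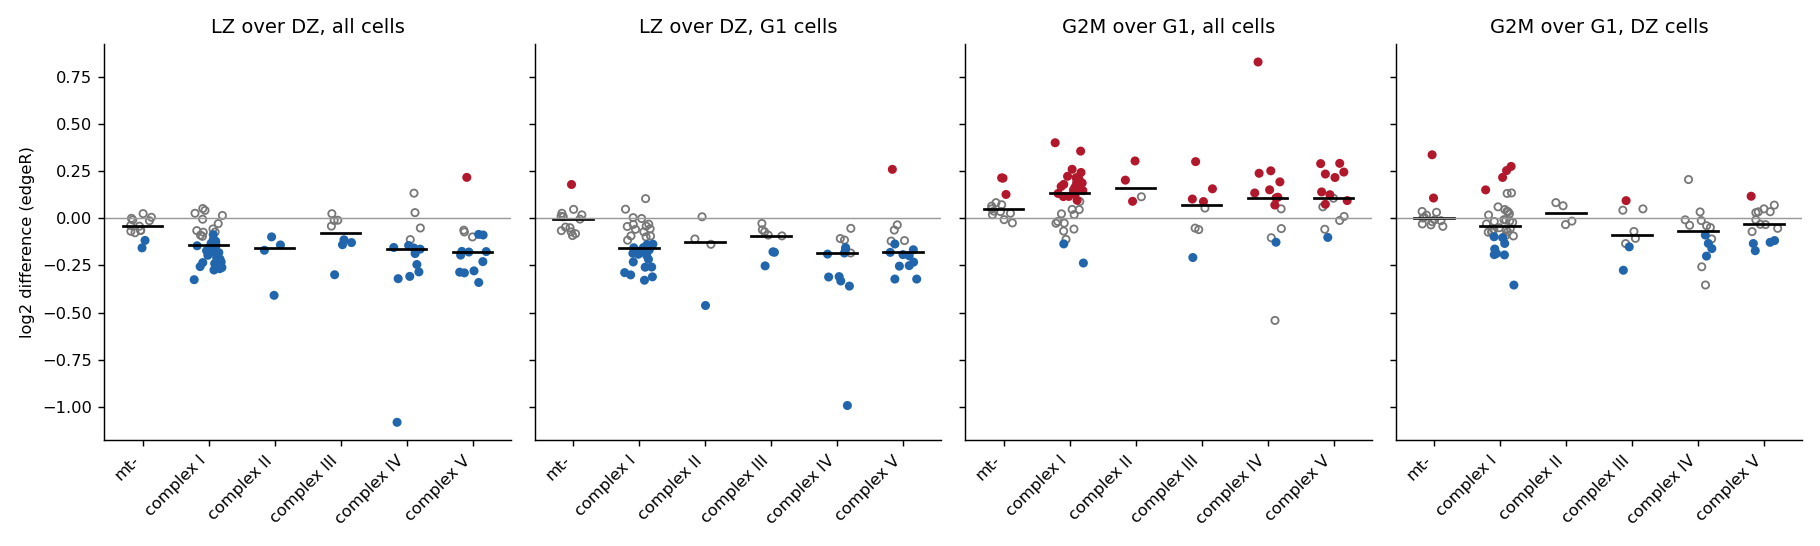
Log2 differences of each member for light zone over dark zone (all cells and G1 cells) and for G2M over G1 (all cells and dark zone cells), by complex; filled points have an edgeR adjusted p under 0.05 and bars mark medians. The medians of the nuclear subunits of each complex lie below 0 in both zone panels. For G2M they lie above 0 in all cells, and below 0 in dark zone cells except for complex II.

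Cell cycle phases were compared in the same way. In S cells 56 nuclear members were higher than in G1 and 4 lower (median 0.13), where 29.1% of 11430 genes tested were higher and 34.2% lower. In complex V 13 of 15 subunits were higher, and in complex I 25 of 36. Ndufa5 stood at 127 and 150.1 CPM at day 7, 92.5 and 90.8 at day 14, and 120.0 and 129.7 in the control and KO chimaera in G1 cells, against 175 and 191 at day 7, 127 and 124 at day 14, and 181 and 193 in the control and KO chimaera in S cells (log2 difference 0.52 ± 0.03 SE, edgeR adjusted p = 6.7e-11). Ndufab1, the mitochondrial acyl carrier protein that is also part of complex I, was higher by 0.48, Uqcr10 of complex III by 0.43 and Ndufv1, the NADH-binding subunit, by 0.41. Ndufa6 (-0.26) and Uqcrh (-0.20) were lower. The nuclear sum was higher in S in 6 of 6 libraries (0.10 and 0.03 at day 7, 0.09 and 0.06 at day 14, and 0.21 and 0.19 in the control and KO chimaera). Within dark zone cells 22 of 86 nuclear members were higher and 9 lower (background 24.1% and 26.5%), and within light zone cells 28 and 4 (22.9% and 26.6%). In dark zone cells the share of members higher was near that of all genes, and the share lower was below that of all genes. The sum was higher in 3 of 6 libraries in dark zone cells and in 6 of 6 in light zone cells. S cells held more UMIs than G1 cells, with medians of 21047 and 20440.0 at day 7, 4054 and 3786 at day 14, and 7999.5 and 8682 in the control and KO chimaera, against 12708 and 13875 at day 7, 2699 and 2461 at day 14, and 5176 and 5122 in the control and KO chimaera in G1. Thinned to 500 UMIs per cell 27 of 83 nuclear members tested were higher and 4 lower (background 18.4% and 17.5% of 8550 genes), and with library totals 36 and 6 of 86 (25.1% and 38.8%). Of the 3 RNA quality transcripts 2 were lower in S (median -0.61) and 1 in G2M (median -0.06), and their part in the results was not tested.

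In G2M cells 51 nuclear members were higher than in G1 and 8 lower (median 0.11), where 28.6% of all genes were higher and 31.6% lower. With library totals in place of TMM the nuclear counts were 29 higher and 14 lower, and those of all genes 2607 higher (22.8%) and 4448 lower (38.9%), against 3268 and 3610 with TMM. Ndufa5 stood at 127 and 150.1 CPM at day 7, 92.5 and 90.8 at day 14, and 120.0 and 129.7 in the control and KO chimaera in G1 cells, against 159 and 171 at day 7, 112 and 113 at day 14, and 167 and 180.3 in the control and KO chimaera in G2M cells (log2 difference 0.40 ± 0.03 SE, edgeR adjusted p = 2.5e-09). Ndufv1 (0.36) and Sdhb (0.31) were also higher, and Ndufa6 (-0.24), Uqcrh (-0.21), Ndufa7 (-0.14) and Cox7c (-0.13) were lower. Within dark zone cells 8 of 86 nuclear members were higher and 21 lower (background 21% and 22.3% of 10712 genes). The share of members lower was near that of all genes, and the share higher was below that of all genes. Sdhb stood at -0.03. Light zone cells in G2M numbered 4 to 102 per library and were not compared here. Thinned to 500 UMIs per cell, cells of both zones together gave 23 higher and 5 lower of 83 tested (background 17.7% and 16.6%).

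The mitochondrial genes showed little change of phase over all libraries, with 2 higher and 1 lower in S and 3 higher and 0 lower in G2M. At an unadjusted p under 0.05, and with DESeq2, 0 were lower in G2M as well, and library totals gave 1. Those called in S were mt-Nd1 (0.19), mt-Nd6 (0.16) and mt-Co1 (-0.16). In G2M they were mt-Nd1 (0.21), mt-Nd6 (0.22) and mt-Co2 (0.13). The tables moved apart below this average. The mitochondrial share in G1 cells was 2.84% and 2.78% at day 7, 6.97% and 7.36% at day 14, and 3.06% and 3.10% in the control and KO chimaera, and in G2M cells 2.61% and 2.58% at day 7, 7.84% and 8.11% at day 14, and 3.08% and 2.996% in the control and KO chimaera. It was higher in G2M in both day 14 libraries and lower in both day 7 libraries. The change from G1 to G2M was itself compared between day 14 and day 7 (interaction term, edgeR), a test chosen after these values had been seen. The change was higher at day 14 for all 13 mitochondrial genes, by 0.24 (mt-Cytb) to 0.38 (mt-Nd6), where 2.3% of 11360 genes were called upwards and 4.84% downwards. From G1 to S this held for 12 (background 2.17% upwards and 4.27% downwards). With day 14 cells held to the mitochondrial share of the day 7 cells, at most 4.99%, these counts were 2 and 6 (background 1.29% and 0.958% upwards, 1.33% and 1.01% downwards), with all 13 genes above 0 in both. The median over the 13 went from 0.27 to 0.12 for G2M and from 0.19 to 0.16 for S. This choice of cells limits the very share that is compared and leaves 2066 and 2267 day 14 cells, so the part of the range in these differences was not tested. Leaving out 1 library left 12 or 13 for G2M, but for S 0 without day 14 replicate 1 and 6 without day 14 replicate 2. The nuclear members differed in both directions, 8 up and 20 down for G2M and 11 up and 13 down for S, and 4 up and 1 down and 3 up and 1 down in the restricted cells. For the zones 1 nuclear member differed upwards and 6 downwards, with 1 mitochondrial gene downwards (background 1.23% and 1.16% of 11492 genes), and in the restricted cells 0, 2 and 0 (0.686% and 0.438%). Without either day 14 library the 3 counts over all cells were 0.

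Genes outside the rule that serve the chain were counted from lists, to be read against the shares over all genes given above for each comparison. In light zone cells these were 30.1% higher and 27.5% lower. In light zone cells 10 of 22 genes for keeping and transcribing mitochondrial DNA were higher and 6 lower. Lrpprc, which stabilises mitochondrial mRNA, was higher (0.30), while the transcription factor Tfam (-0.14) and the mitochondrial RNA polymerase Polrmt (-0.16) were lower. Of 10 regulators 4 were higher and 5 lower, with the coactivators Pprc1 (0.79) and Ppargc1b (0.53) among the higher. Of 14 electron carrier genes 1 was higher and 8 lower, including Cyc1 (-0.20) and cytochrome c, Cycs (-0.10). Of 16 TCA cycle genes 1 was higher and 8 lower, and of 42 further assembly factors 15 were higher and 7 lower.

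In S cells, where 29.1% of genes were higher and 34.2% lower, 10 of the 14 carrier genes were higher, with Cycs at 0.46 and Cyc1 at 0.31. Of 16 TCA cycle genes 8 were higher. Of the 42 further assembly factors 12 were higher and 12 lower, and of the 22 genes for mitochondrial DNA 7 and 6. Of the 10 regulators 8 were higher and 2 lower. Tfam was also higher (0.36), as were Ppargc1b (0.62) and Pprc1 (0.31). In G2M cells (28.6% of genes higher and 31.6% lower) 8 carrier genes were higher and 1 lower, and 11 TCA cycle genes higher and 3 lower. The further assembly factors had 12 higher and 14 lower, the genes for mitochondrial DNA 7 and 7, and the regulators 5 and 4. Pprc1 (-0.54), Ppargc1b (-0.49) and Lrpprc (-0.22) were lower in G2M, whereas Polrmt (0.30) and Tfam (0.14) were higher. At day 14 against day 7 (33% of genes lower and 34.9% higher), 13 of 16 TCA cycle genes and 10 of 14 carrier genes were lower, with 1 and 2 higher. The further assembly factors had 27 lower and 4 higher, the genes for mitochondrial DNA 10 and 7, and the regulators 2 and 4.

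The KO and control chimaeras ask whether Il4ra in host stroma bears on GC B cells. They are 1 library each, so there is no test, and intervals (exact, 95%) cover counting error only. Of 80 nuclear and 13 mitochondrial members with at least 20 CPM, 0 differed by a log2 ratio of 0.5 or more, where 3.37% of 5189 genes did. None of these members reached 0.25 either, where 9.42% of genes did. The nuclear ratios were small and mostly on one side: 75 of 80 lay above 0, with a median of 0.08, from -0.18 (Ndufs8) to 0.18 (Ndufa3). Of all 5189 genes 2849 lay above 0, with a median of 0.01. Between the 2 day 14 replicates 38 of 79 nuclear members lay above 0, from -0.10 to 0.12. None of them reached either size, where 0.831% of 6136 genes reached 0.5 and 2.59% reached 0.25. Signs of single members were not counted between the day 7 replicates. The nuclear sum differed by 0.08 between KO and control, by 0.07 between the day 7 replicates and by 0.00 between the day 14 replicates. The KO difference was thus close to that between replicate libraries of day 7 and above that of day 14.

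Ndufs8, an iron-sulphur subunit of complex I, stood at 161 CPM in the control and 142 in the KO chimaera (log2 ratio -0.18, 95% interval -0.22 to -0.13). Ndufa3 stood at 281 CPM in the control and 318 in the KO chimaera (log2 ratio 0.18, 95% interval 0.15 to 0.21). Of the mitochondrial genes mt-Atp6 had the lowest ratio, at 789 CPM in the control and 670.0 in the KO chimaera (log2 ratio -0.24, 95% interval -0.26 to -0.22), and mt-Cytb the highest, at 3660.0 CPM in the control and 3852 in the KO chimaera (log2 ratio 0.07, 95% interval 0.07 to 0.08). The nuclear sum was higher in the KO library in all 8 clusters, by 0.05 to 0.08 in clusters 0 to 6 and by 0.11 in the plasma-like cluster 7, of 136 KO and 288 control cells. In cluster 7 the nuclear sum was 0.02 higher without immunoglobulin genes in the total. With them in the total, the mitochondrial sum was 0.41 higher there, against a range of -0.13 to -0.0047 in the others. The mitochondrial sum of each cluster was not computed without them, so these values of cluster 7 rest on unlike totals. Mitochondrial UMIs per nuclear UMI do not depend on the total. They were higher in the KO library in cluster 7, as given below, and lower in it in clusters 0 to 6. Immunoglobulin genes took 2.52% of control UMIs and 1.55% of KO UMIs, and without them in the total the nuclear sum differed by 0.07.

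The deposited clusters were drawn on these same cells and are described with no test. In the day 14 table, mitochondrial UMIs per nuclear UMI were highest in cluster 8 (11.03 and 9.19 in replicates 1 and 2) and cluster 3 (8.97 and 9.93), both unnamed. Cluster 3 is the shallowest of the large clusters, with a median of 1221 UMIs per cell, and all 13 mitochondrial members lay above their library's level in it, with 2 of 79 nuclear ones. The dark zone-like cluster 4 had 3.01 and 3.04, and 72 and 70 of 79 nuclear members above the library. Cluster 10, of 50 cells, was lower in 1 replicate.

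In the chimaeras, cluster 4, led by histone genes, had the highest ratio (control 1.89, KO 1.64). Cluster 5, led by mitotic genes such as Cdc20, had nearly all nuclear members above the library (78 of 79 in the control, 80 of 80 in the KO) and 0 of 13 mitochondrial ones. Its ratio was 0.816 and 0.737, near that of the MYC-high selected-like cluster 6 (0.798 and 0.746). The plasma-like cluster 7 had 0.699 and 0.859, with both genomes low as shares of a total that includes immunoglobulin UMIs. The part of that total in the low shares was not tested. The day 7 clusters spanned less, from 0.847 in the MYC-high selected-like cluster 2 of replicate 2 to 1.04 in the unnamed cluster 3 of replicate 1, which is led by haemoglobin genes.

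**Figure D5:**
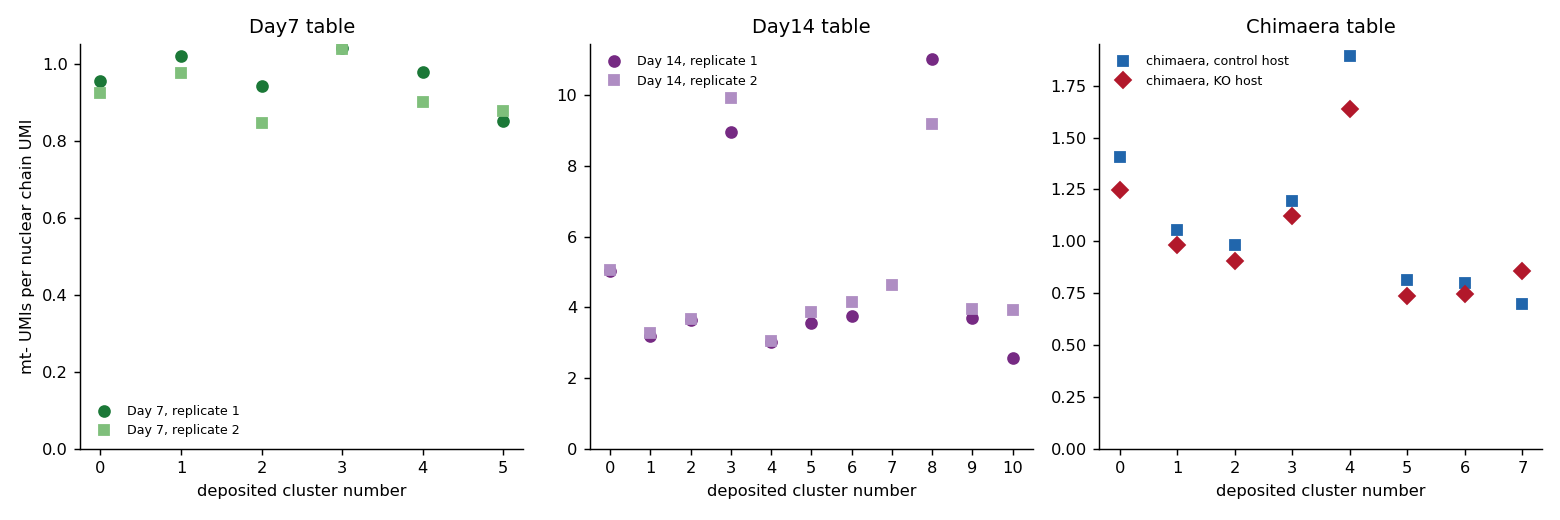
Mitochondrial UMIs per nuclear member UMI in each deposited cluster of the 3 tables, 1 point per library. Clusters 3 and 8 of the day 14 table lie highest, and the chimaera and day 7 clusters stay below 2.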

How the data were processed

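Raw UMI counts (genes by cells) were deposited by the authors in 3 tables, beside tables of each cell's Phase, Position and cluster. Cell Ranger, Seurat and the mm10 build are named in the submitters' processing notes, without versions. How overlapping genes were counted and how phases, zones and clusters were called is not given in the sources used here. Counts were summed per library, and per library and phase or zone. The 2 columns of Atp5o were added. All deposited cells were kept and no doublet caller was run. How doublets were treated before deposit is not given in the sources used here, and leaving out the 5% of cells with the most UMIs in each library was an alternative.

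Sums were tested with edgeR 4.0.16 (R 4.3.3; TMM scaling, filterByExpr, quasi-likelihood, adjusted p under 0.05 over all genes), with library as a block for phases and zones. The fits were tested on simulated data. DESeq2 1.42.0, other scalings and filters, cells thinned to 500 UMIs and each library left out were alternatives. Levels are UMIs per 1000000 UMIs of a library (CPM). Chimaera ratios have exact 95% binomial intervals, for genes of at least 20 CPM. Named genes are all mitochondrial members, 12 reference subunits, and the 4 nuclear subunits with the largest called difference in each direction. A cluster is named from at least 3 markers; that 1 of its 10 leading genes must be such a marker was added after the clusters were seen. Members and lists were chosen with earlier results of these data known.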

Additional observations from a re-analysis of the deposited data

Results flagged for a closer look

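Differences between phases or zones were themselves compared between the day 14 and day 7 libraries, with an interaction term in edgeR and p-values adjusted over all genes by Benjamini-Hochberg. The phase tests, and all their alternatives, were chosen after the values had been seen.

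The change of the mitochondrial genes from G1 to G2M differed between the days for all 13 genes (2.3% of 11360 genes were called in this direction and 4.84% in the other). The excess at day 14, in log2, was 0.25 for mt-Nd1, 0.30 for mt-Nd2, 0.25 for mt-Co1, 0.26 for mt-Co2, 0.30 for mt-Atp8, 0.36 for mt-Atp6, 0.25 for mt-Co3, 0.30 for mt-Nd3, 0.27 for mt-Nd4l, 0.25 for mt-Nd4, 0.31 for mt-Nd5, 0.38 for mt-Nd6 and 0.24 for mt-Cytb. Of the nuclear members 28 differed, 8 upwards and 20 downwards. From G1 to S, 12 mitochondrial genes differed (background 2.17% and 4.27%): 0.14 for mt-Nd1, 0.18 for mt-Nd2, 0.15 for mt-Co1, 0.19 for mt-Co2, 0.21 for mt-Atp8, 0.19 for mt-Atp6, 0.15 for mt-Co3, 0.20 for mt-Nd3, 0.23 for mt-Nd4l, 0.21 for mt-Nd5, 0.33 for mt-Nd6 and 0.17 for mt-Cytb. Of the nuclear members 24 differed, 11 upwards and 13 downwards. With day 14 cells held to the mitochondrial range of the day 7 table (2066 and 2267 cells), 2 mitochondrial, 4 higher and 1 lower nuclear members were called for G2M, and 6, 3 and 1 for S. Without day 14 replicate 1 the S count of mitochondrial genes was 0. The restriction acts on the share that is compared, so the part of the tables' ranges in these differences was not tested.

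The light zone difference differed between the days for 7 nuclear members and 1 mitochondrial gene (1.23% of 11492 genes upwards and 1.16% downwards). The mitochondrial gene was mt-Atp8 (-0.15). Atp5g2, a c-ring gene, differed upwards (0.29), and Ndufs6 (-0.35), Ndufv3 (-0.34), Ndufb7 (-0.28) and Atp5k (-0.25) were among the 6 that differed downwards. With the day 14 cells restricted as above 2 nuclear members and 0 mitochondrial genes were called, and DESeq2 called 0 of either, where 27 nuclear members and 12 mitochondrial genes had an unadjusted p under 0.05 downwards in edgeR.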

How the results depend on the processing

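Numbers of nuclear members are given as higher and lower. Sign changes of single genes are listed for those named by rule and called with the main or the other setting, beside counts over all members. For day 14 against day 7, library totals gave 10 higher, and the cells in the shared range 23 and 11, with 5 mitochondrial genes lower. In that range 28 of the nuclear members called in all cells had the other sign, 11 of them called in both. Among the genes named by rule 11 changed sign: mt-Atp6 (-0.72), mt-Co3 (-0.80), mt-Nd1 (-0.75), mt-Nd2 (-0.090), mt-Nd3 (-0.97), mt-Nd6 (-0.44), Ndufv1 (0.29), Ndufb8 (0.49), Uqcrq (0.53), Cox4i1 (0.19) and Atp5b (0.029). The c-ring gene Atp5g1, described above by its level, changed sign too (0.41). Leaving out 1 library gave 2 to 5 nuclear members higher, the fewest without either day 14 library. The labels do not say that replicate numbers pair the day 7 and day 14 libraries, and the replicates' differences correlated at 0.176 over 11995 genes. With the replicate block, 4 nuclear members were higher and 71 lower, and 10 mitochondrial genes higher.

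For G2M against G1, library totals gave 29 and 14 nuclear members, with 1 mitochondrial gene lower, thinned cells 23 and 5, and dark zone cells 8 and 21. Scaling without mitochondrial and ribosomal protein genes gave 5 mitochondrial genes higher, and leaving out 1 library 2 to 5, the most without either day 7 library. In dark zone cells 26 nuclear members called in all cells had the other sign and in thinned cells 3. Of the named genes Sdhb (-0.033), Ndufb8 (-0.073), Ndufa4 (-0.0073), Uqcrc1 (-0.069), Cox4i1 (-0.088), Atp5a1 (-0.031) and Atp5b (-0.070) changed sign in dark zone cells, and in thinned cells Sdha (-0.022) and Uqcrc1 (-0.0092). For S against G1, library totals gave 36 nuclear members higher, with 1 mitochondrial gene higher and 3 lower. Thinned cells gave 27 nuclear members higher, dark zone cells 22 and 9, and light zone cells 28 higher with 0 mitochondrial genes higher. Without the cells of most UMIs 1 mitochondrial gene was higher, and without 1 library 1 to 3 higher and 1 to 2 lower (1 higher without either day 14 library or the control chimaera, 2 lower without either day 14 library). For S 8 called members had the other sign in dark zone, 5 in light zone and 3 in thinned cells. Of the named genes Sdhb (-0.19), Uqcrc1 (-0.0079) and Cox4i1 (-0.0017) changed sign in dark zone cells, and Ndufs1 (-0.13) and Uqcrc1 (-0.0086) in thinned cells.

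For light against dark zone, library totals gave 7 nuclear members and 1 mitochondrial gene higher, thinned cells 1 nuclear higher and 1 mitochondrial lower, and G1 cells 2 nuclear and 1 mitochondrial higher and 0 mitochondrial lower. DESeq2 (5), no count filter (5) and scaling without mitochondrial and ribosomal protein genes (5) called more mitochondrial genes lower, and leaving out 1 library gave 2 to 5, the most without day 7 replicate 2 or the KO chimaera. In G1 cells 8 nuclear and 3 mitochondrial members had the other sign, 1 of the nuclear ones called in all cells. Of the named genes mt-Nd6 (0.19) and Sdha (0.0090) did. With no replicate block, so that the spread holds the differences between libraries, G2M gave 2 and 1 nuclear members and 0 mitochondrial, S 1 and 0 with 0 and 0, and light against dark zone 1 and 2 with 0.

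For the tests of differences between days, DESeq2 gave 0 and 0 nuclear members and 0 mitochondrial for the zones, 2 and 3 nuclear for G2M, and 3 and 3 nuclear with 6 mitochondrial for S. Day 14 cells within the mitochondrial range of day 7 gave 0 and 2 with 0, 4 and 1 with 2, and 3 and 1 with 6. Leaving out 1 library gave, for the zones, 0 to 10 nuclear members higher, 0 to 25 lower and 0 to 7 mitochondrial lower, with 0 of each without either day 14 library and 25 nuclear lower without day 7 replicate 1. For G2M it gave 1 to 18 and 4 to 16 nuclear, and for S 0 to 27 and 3 to 17 nuclear with 0 to 13 mitochondrial. The highest nuclear counts upwards came without day 7 replicate 1, and the lowest without day 14 replicate 1. The lone library of a day is then assumed to vary like the others.

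Mitochondrial UMIs per nuclear UMI in clusters, averaged over the libraries of a table, moved by more than the spread between them in 7 cases. For day 14 cluster 4 the mean of per cell shares gave 3.81, nuclear subunits alone 3.11 and leaving out the 5% of cells with most UMIs 3.25. For day 7 cluster 3 these were 1.10, 1.07 and 1.05, and for day 7 cluster 5 the first was 0.949. The causes were not tested. Over all alternatives 1393 values of the named genes kept their direction and side of the threshold, 157 kept the direction and lost the call, 51 gained one and 27 changed sign. With 1 library per chimaera, no alternative gives that comparison a test.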
